A study of Mus musculus with 14 samples.

Results

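The genes described here are 8 members of the interleukin 6 (IL6) and leukaemia inhibitory factor (LIF) signalling family: the ligand genes Il6 and Lif, the receptor genes Osmr, Il6st and Lifr, the signal transducer genes Jak2 and Stat3, and the inhibitor gene Socs3. They were chosen by name, with earlier results of these data known, as the rows of both count tables that carry these symbols. They are 8 of the 49671 genes counted. The question was how they differ between satellite cells that carry a Fos reporter signal and those that do not, and between cells with and without a conditional deletion of Fos, the gene of an AP-1 transcription factor.

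Cytokines of this family bind a ligand-specific receptor chain that pairs with the shared chain gp130, the product of Il6st. The JAK kinases held by these chains then phosphorylate STAT3, which enters the nucleus and raises the transcription of its targets, among them Socs3, whose product binds gp130 and JAK and ends the signal. In skeletal muscle, IL6 and LIF are made by fibres and by cells that gather after injury, and STAT3 signalling acts on the proliferation and differentiation of satellite cells, the muscle stem cells.

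RNA of sorted satellite cells from C57BL/6J mice, taken from resting muscle of hind limb, chest (pectoral) and triceps, was sequenced in 14 libraries. The first dataset has 4 FosGFP+ and 4 FosGFP- libraries from FosGFP mice aged 4 months, so the cells of both groups carry the GFP reporter and differ in its signal. The second dataset has 3 libraries labelled FoscKO and 3 labelled Control from mice aged 6 months. The sort kept cells with B1-Integrin and CXCR4 on their surface and left out those with Sca1, Ter119 or the blood and vessel markers CD45, CD31 and CD11b. The series text gives 4 mice for the first dataset and 3 for the second, and the labels do not say which mouse a library came from, so p-values measure the spread between these libraries, which may be technical. The same text has FosGFP+ in the gate of FoscKO and Control cells alike, and whether those cells were gated on GFP could not be settled. The promoter that drives Cre, the deleted exons and the construction of the reporter are not given in the sources used here.

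Counts in genes were 3806776 to 5983711 in FosGFP+ libraries, 2652230 to 4067543 in FosGFP- libraries, 4797954 to 10241655 in FoscKO libraries and 5326686 to 6930696 in Control libraries. The share of all counted reads that fell in genes was 17.0% to 23.2% in FosGFP+ libraries and 10.3% to 14.1% in FosGFP- libraries. It was 15.9% to 30.2% in FoscKO libraries, with the highest share and the fewest genes (31483) in FoscKO replicate 1, and 16.8% to 19.0% in Control libraries. The 10 satellite cell markers summed to 10811 to 14227 CPM (counts scaled to library size) in FosGFP+ and 4584 to 7582 in FosGFP- libraries. Of the 10, 5 were called higher, against 10.3% of all genes tested and 41.9% of genes of at least 50 CPM. Their median log2 fold change was 0.57, as was that of genes of at least 50 CPM. In the second dataset these markers summed to 7029 to 12793 CPM in FoscKO libraries and 7307 to 10993 in Control libraries. The defining markers were present in all 14 libraries, with Pax7 at 38.7 to 79.6 CPM in FosGFP+ libraries, 41.8 to 85.9 in FosGFP- libraries, 32.1 to 70.8 in FoscKO libraries and 54.9 to 64.9 in Control libraries.

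Fos itself did not follow the labels. Fos mRNA was at 5243, 5398, 3098 and 4606 CPM in the libraries labelled FosGFP+, against 12883, 11592, 7908 and 11302 CPM in those labelled FosGFP-, and fell by 1.25 ± 0.21 on the log2 scale (SE; edgeR adjusted p = 9.33e-04). In the libraries labelled FoscKO it was at 8442, 2876 and 3805 CPM, against 5044, 5025 and 4733 CPM in those labelled Control, a log2 difference of 0.03 ± 0.39 (edgeR adjusted p = 0.996). Counts per gene cannot show the loss of part of a gene, and every direction below is between libraries as labelled.

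Binding motifs were sought as TGANTCA for AP-1, the family of Fos, and as TTCNNNGAA for STAT proteins. TGANTCA is wider than the usual AP-1 site, TGACTCA or TGAGTCA. The sequences before the RefSeq start sites of Il6, Lif and Socs3 are shown because they hold such a motif. They run 5′ to 3′ and stop where the nearest annotated exon of the gene begins, with the motif in capitals, and come from RefSeq, build GRCm38.p6. The Il6 stretch is chr5:30012864-30013113 (+ strand), the Lif stretch chr11:4257318-4257556 (+ strand) and the Socs3 stretch chr11:117969452-117969616 (- strand), which lies inside the annotated gene, since another Socs3 transcript starts upstream of it.
Il6: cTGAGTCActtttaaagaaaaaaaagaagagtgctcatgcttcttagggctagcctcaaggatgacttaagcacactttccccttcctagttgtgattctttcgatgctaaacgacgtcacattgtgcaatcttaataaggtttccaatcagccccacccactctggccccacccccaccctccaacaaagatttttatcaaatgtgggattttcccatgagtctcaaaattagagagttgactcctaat
Lif: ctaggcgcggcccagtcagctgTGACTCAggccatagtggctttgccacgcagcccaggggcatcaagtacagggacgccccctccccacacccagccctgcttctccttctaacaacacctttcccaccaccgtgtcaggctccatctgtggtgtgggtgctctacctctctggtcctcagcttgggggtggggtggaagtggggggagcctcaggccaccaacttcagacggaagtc
Socs3: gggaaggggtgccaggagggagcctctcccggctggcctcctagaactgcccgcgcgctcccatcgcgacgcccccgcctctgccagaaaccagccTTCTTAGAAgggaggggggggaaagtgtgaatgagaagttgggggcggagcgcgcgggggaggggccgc
The AP-1 motif begins 249 bases before the RefSeq start of Il6 as TGAGTCA and 228 bases before that of Lif as TGACTCA, and the STAT motif begins 154 bases before that of Socs3 as TTCTTAGAA. Osmr holds TGATTCA, which matches TGANTCA but is not the usual AP-1 site. This match begins 3 bases after the RefSeq start of Osmr and lies within an annotated exon. Windows of 300 bases around the starts of the other members, 1 for Il6st, 2 for Lifr, 1 for Jak2 and 1 for Stat3, held neither motif. Of all 32851 such windows, searched on both strands, 7.81% held TGANTCA, 8.30% held TTCNNNGAA and 1.79% held the CREB motif TGACGTCA, which no member window held. These matches describe letters and say nothing of binding.

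Between FosGFP+ and FosGFP- libraries, Osmr, Il6st, Jak2 and Stat3 rose, Socs3 fell, and Il6, Lif and Lifr did not pass the test. All 8 members were among the 20698 genes tested, and the 5 called stand against 12.1% of all genes tested, with 26.4% of genes at an unadjusted edgeR p under 0.05. Among genes of at least 50 CPM on average, 43% were called, 41.9% higher and 1.02% lower, and 5 of the 6 members above that level were called. For 5 of the 8 members every library of 1 group lay above every library of the other, against 19.3% of all genes and 49.8% of genes of at least 50 CPM. The median log2 fold change of the members was 0.96, against -0.18 over all genes and 0.57 over genes of at least 50 CPM. Since the members were chosen with earlier results of these data known, an excess over these shares and medians carries no test. In bulk RNA, fewer cells that express a gene and less of its RNA per cell cannot be told apart.

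**Figure D1:**
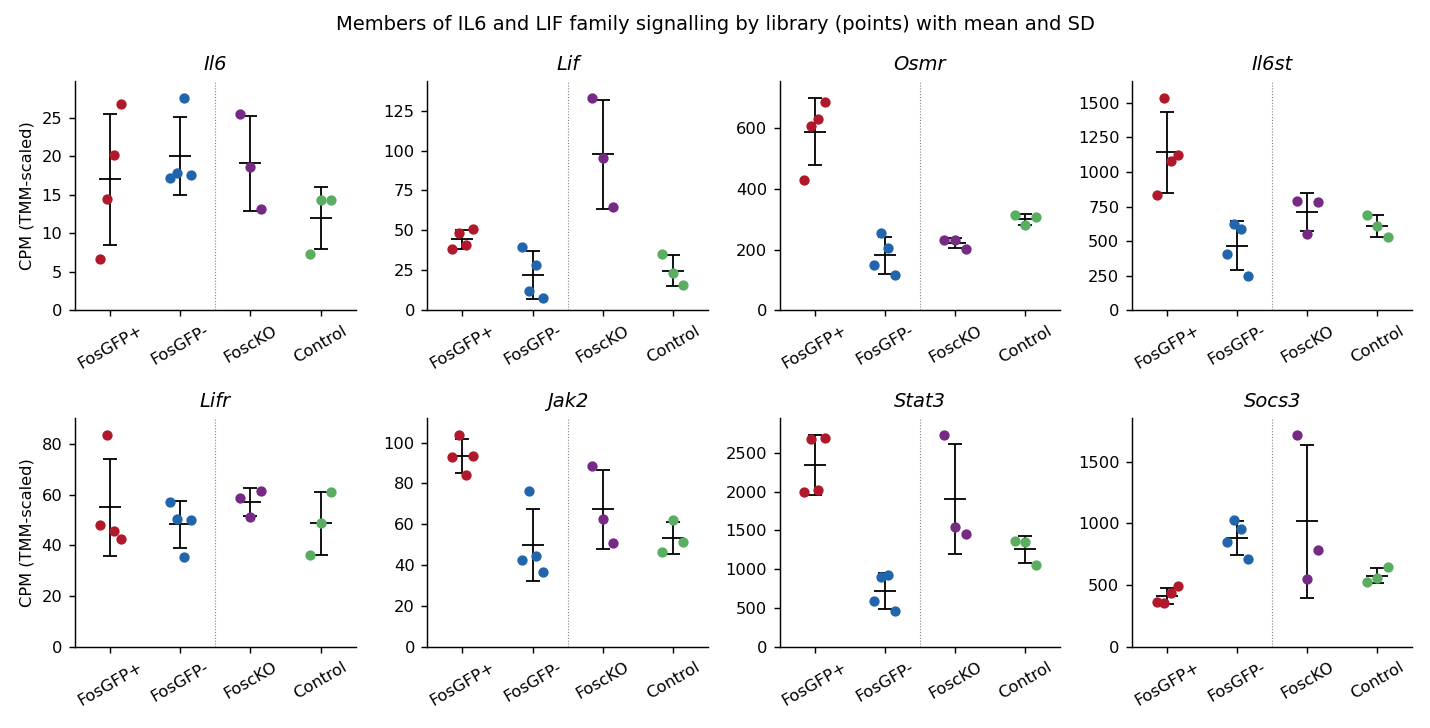
Level of each of the 8 members in each of the 14 libraries, in TMM-scaled CPM on linear axes that start at 0, with groups along the horizontal axis. Points are libraries, and bars are the group mean and SD (n = 4 or 3). The 4 FosGFP+ libraries lie above the 4 FosGFP- libraries for Osmr, Il6st, Jak2 and Stat3 and below them for Socs3. The 3 FoscKO libraries lie above the 3 Control libraries for Lif and Stat3 and below them for Osmr.

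Of the ligand genes, Il6 encodes the cytokine that signals through the IL6 receptor and gp130. Il6 (ENSMUSG00000025746, chromosome 5, 30013114 to 30019981, GRCm38) was at 6.67, 14.4, 20.2 and 26.8 CPM in FosGFP+ libraries and at 17.2, 17.8, 27.6 and 17.6 CPM in FosGFP- libraries. The groups overlapped, and the FosGFP+ libraries were the more widely spread. Its log2 fold change was -0.23 ± 0.37 (SE; edgeR adjusted p = 0.706), and without FosGFP+ replicate 1, the library with the lowest level, it was 0.07.

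Lif encodes the cytokine that binds the LIF receptor and gp130. Lif (ENSMUSG00000034394, chromosome 11, 4257557 to 4272514) was at 38.1, 48.25, 40.7 and 50.7 CPM in FosGFP+ libraries and at 39.9, 12.3, 28.2 and 7.47 CPM in FosGFP- libraries. The FosGFP+ libraries lay close together, and FosGFP- replicate 1 was within their range while the other FosGFP- libraries were lower. The means were 44.4 ± 6.01 CPM in FosGFP+ libraries and 21.97 ± 14.9 CPM in FosGFP- libraries (SD, n = 4 each), with a log2 fold change of 1.01 ± 0.38 (edgeR adjusted p = 0.101). Without FosGFP- replicate 1 it was 1.48 with an edgeR adjusted p of 0.0206, and the authors' deposited table gives 0.96 ± 0.36 with an adjusted p of 0.0433, with its sign turned round. The FosGFP- libraries held 345 Lif counts in all. A background spread evenly over exons, estimated from 1467 olfactory, vomeronasal and taste receptor genes, would give 5.81% to 9.94% of the Lif counts of the FosGFP+ libraries and 10.4% to 72.4% of those of the FosGFP- libraries.

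Of the receptor genes, Osmr encodes the chain that binds oncostatin M together with gp130. Osmr (ENSMUSG00000022146, chromosome 15, 6813577 to 6874969) was at 429.9, 608, 629.7 and 687 CPM in FosGFP+ libraries and at 148, 255, 204 and 116 CPM in FosGFP- libraries. Every FosGFP+ library was above every FosGFP- library. The means were 589 ± 111 CPM in FosGFP+ libraries and 181 ± 61.4 CPM in FosGFP- libraries (SD, n = 4 each), with a log2 fold change of 1.70 ± 0.24 (edgeR adjusted p = 3.21e-04).

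Il6st, the gene of the shared chain gp130 (ENSMUSG00000021756, chromosome 13, 112464070 to 112510086), was at 831, 1534, 1083 and 1119 CPM in FosGFP+ libraries and at 409.7, 626, 589 and 247 CPM in FosGFP- libraries. The groups did not overlap. Its log2 fold change was 1.29 ± 0.26 (SE; edgeR adjusted p = 0.00407).

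Lifr encodes the chain that binds LIF together with gp130. Lifr (ENSMUSG00000054263, chromosome 15, 7090614 to 7197489) was at 48.1, 83.5, 45.5 and 42.5 CPM in FosGFP+ libraries and at 57.25, 50.5, 35.4 and 49.9 CPM in FosGFP- libraries. FosGFP+ replicate 2 stood above all others and the remaining libraries intermingled. The log2 fold change was 0.19 ± 0.25 (SE; edgeR adjusted p = 0.654), and it turned to -0.07 without FosGFP+ replicate 2.

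Of the signal transducers, Jak2 encodes a kinase bound to the receptor chains. Jak2 (ENSMUSG00000024789, chromosome 19, 29251828 to 29313080) was at 92.7, 104, 83.9 and 93.2 CPM in FosGFP+ libraries and at 42.5, 76.1, 44.6 and 36.4 CPM in FosGFP- libraries. The groups did not overlap, with FosGFP- replicate 2 nearest to the FosGFP+ libraries. The log2 fold change was 0.90 ± 0.23 (SE; edgeR adjusted p = 0.0154). The call was lost without FosGFP- replicate 1 (0.85, edgeR adjusted p = 0.0525) and under scaling by total counts (0.52, edgeR adjusted p = 0.0789).

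Stat3 (ENSMUSG00000004040, chromosome 11, 100885098 to 100939540), the transcription factor gene of the pathway, was at 1989, 2669.6, 2020.3 and 2688 CPM in FosGFP+ libraries and at 587, 901, 922 and 464 CPM in FosGFP- libraries. The lowest FosGFP+ library was above the highest FosGFP- library. The means were 2342 ± 389 CPM in FosGFP+ libraries and 719 ± 229 CPM in FosGFP- libraries (SD, n = 4 each), with a log2 fold change of 1.70 ± 0.23 (edgeR adjusted p = 2.51e-04). Stat3 overlaps Stat5a on the other strand and the kit does not keep the strand. Stat5a had at most 681 counts in a library of the first dataset, against 1554 to 12781 for Stat3.

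Socs3 (ENSMUSG00000053113, chromosome 11, 117966079 to 117970047), the inhibitor gene, was at 362, 353, 435 and 497 CPM in FosGFP+ libraries and at 847, 1029, 951 and 710.0 CPM in FosGFP- libraries. Every FosGFP+ library was below every FosGFP- library. Socs3 fell by 1.10 ± 0.18 on the log2 scale (SE; edgeR adjusted p = 9.25e-04), with means of 412 ± 67.7 CPM in FosGFP+ libraries and 884 ± 138 CPM in FosGFP- libraries (SD, n = 4 each).

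**Figure D2:**
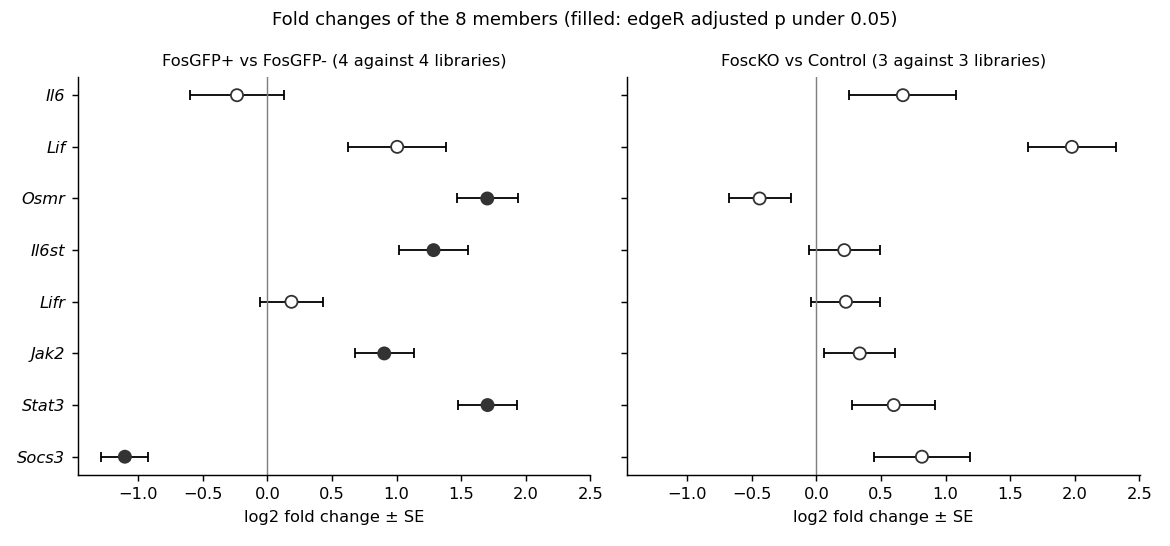
Log2 fold changes of the 8 members with their SE, FosGFP+ over FosGFP- on the left (4 against 4 libraries) and FoscKO over Control on the right (3 against 3). Filled points have an edgeR adjusted p under 0.05. Filled points stand for Osmr, Il6st, Jak2, Stat3 and Socs3 on the left, from -1.10 for Socs3 to 1.70 for Stat3 and Osmr, and none on the right, where Lif has 1.98.

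The results were computed again under other scalings and tests. The even background was 6.39% to 10.6% of gene counts in FosGFP+ libraries and 13.0% to 19.4% in FosGFP- libraries, and 1 alternative subtracted it from the counts. Osmr, Il6st, Stat3 and Socs3 passed in all 17 alternatives run, which included the scalings, other tests and each library left out in turn. Their ranges on the log2 scale were 1.14 to 1.94 for Osmr, 0.73 to 1.48 for Il6st, 1.14 to 1.86 for Stat3 and -1.67 to -0.999 for Socs3. Set against the median of genes of at least 50 CPM, which moves with the scaling, Osmr was higher by 1.14, Stat3 by 1.14, Il6st by 0.72 and Jak2 by 0.34, and Socs3 was at -1.67. Leukocyte markers summed to 60.2 to 101.5 CPM in FosGFP+ libraries and 84.5 to 150.2 CPM in FosGFP- libraries, with none of the 6 tested called. Fibro-adipogenic progenitor markers summed to 565 to 1048 CPM in FosGFP+ libraries and 799 to 1314 CPM in FosGFP- libraries, with 1 of 9 called lower. Endothelial markers summed to 209 to 241 CPM in FosGFP+ libraries and 218 to 340 CPM in FosGFP- libraries, with 1 of 9 called lower. Smooth muscle and pericyte markers summed to 507 to 679 CPM in FosGFP+ libraries and 249 to 827 CPM in FosGFP- libraries, with 1 of 8 called lower, and mature fibre markers to 688 to 1455 CPM in FosGFP+ libraries and 697 to 944 CPM in FosGFP- libraries, with none of 8 called. Of the defining markers, Ptprc of leukocytes was at 29.7 to 51.2 CPM in FosGFP+ libraries and 43.4 to 74.4 CPM in FosGFP- libraries, and Pdgfra of fibro-adipogenic progenitors at 8.35 to 20.7 CPM in FosGFP+ libraries and 19.8 to 37.7 CPM in FosGFP- libraries. No marker was at 0 over a whole group, and the part of these cells in the results was not tested.

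**Figure D3:**
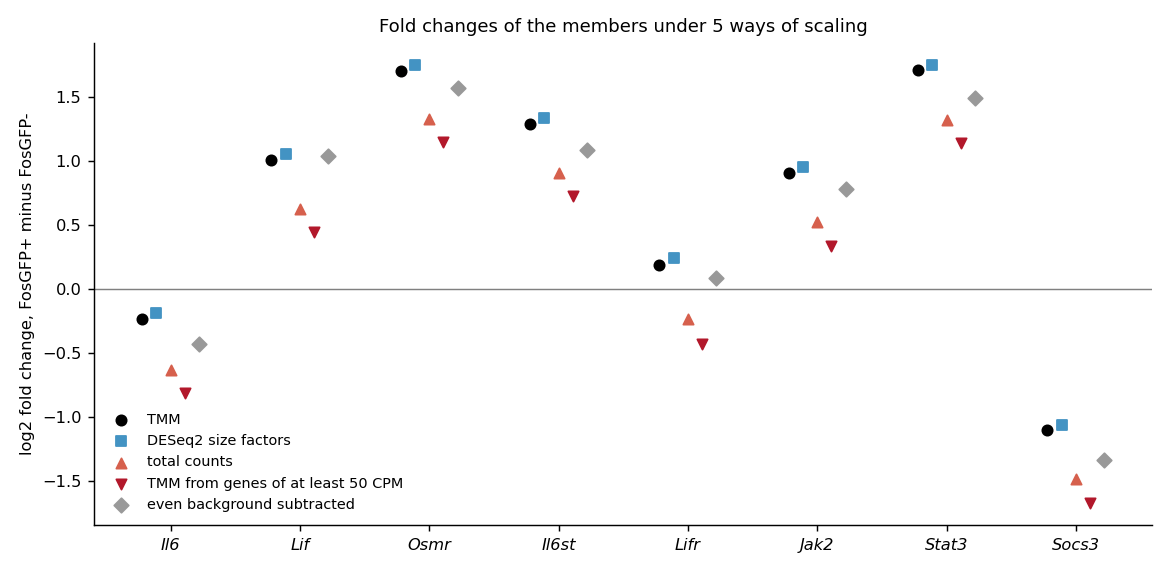
Log2 fold change of each member (horizontal axis), FosGFP+ over FosGFP-, under 5 ways of scaling the counts. Marks of different shape and colour stand for the scalings named in the legend. Osmr, Il6st and Stat3 stay above 0 and Socs3 below 0 under each scaling drawn, while Lifr runs from -0.43 to above 0.

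Ratios of counts within a library do not depend on its scaling, and the pairs given here were chosen after their values were seen, so they carry no test. There were 0.132 to 0.215 Socs3 counts per Stat3 count in FosGFP+ libraries, against 1.03 to 1.53 in FosGFP- libraries. In the second dataset this ratio was 0.355 to 0.630 in FoscKO libraries and 0.384 to 0.613 in Control libraries, which overlap. There were 7.27 to 16.2 Osmr counts per Lifr count in FosGFP+ libraries and 2.34 to 5.78 in FosGFP- libraries, and 3.27 to 4.51 in FoscKO libraries and 5.05 to 8.60 in Control libraries. The Osmr per Lifr ratio did not overlap between the groups in either dataset, and was higher in FosGFP+ and lower in FoscKO libraries. How many other pairs of genes do so was not tested, and neither Osmr nor Lifr passed the test in the second dataset. The even background would give 8.31% to 32.7% of the Lifr counts in the first dataset and 8.18% to 21.7% in the second. It was not subtracted from these ratios. There were 0.396 to 0.614 Osmr counts per Il6st count in FosGFP+ libraries and 0.347 to 0.472 in FosGFP- libraries, which overlap, against 0.258 to 0.420 in FoscKO libraries and 0.454 to 0.583 in Control libraries, which do not. There were 1.89 to 5.71 Lif counts per Il6 count in FosGFP+ libraries and 0.424 to 2.32 in FosGFP- libraries, and 4.9 to 5.21 in FoscKO libraries and 1.11 to 4.85 in Control libraries.

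**Figure D4:**
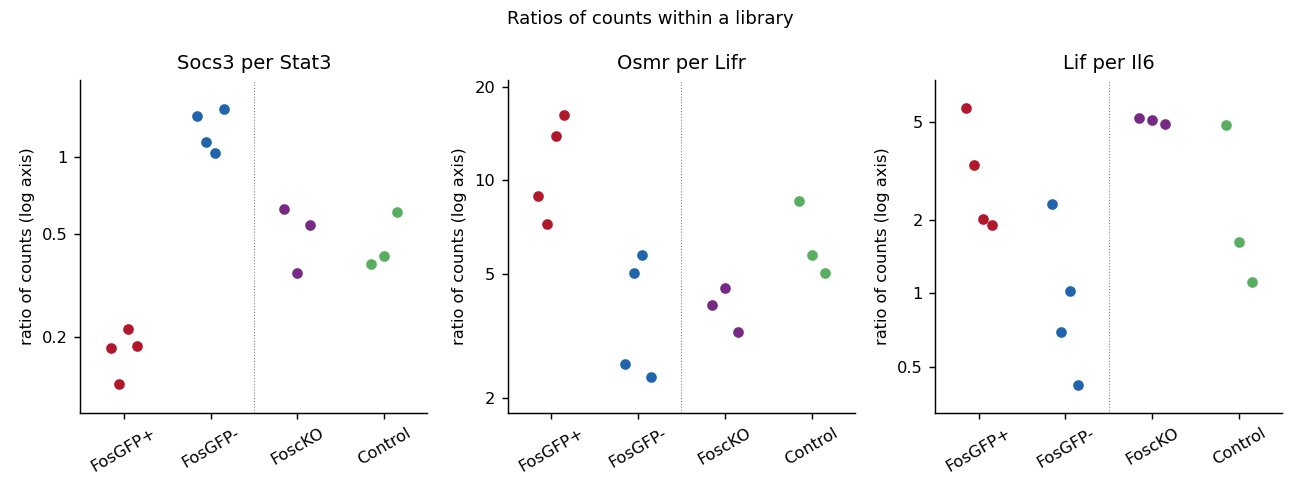
Ratio of the counts of 2 genes in each of the 14 libraries, on log axes, for Socs3 per Stat3, Osmr per Lifr and Lif per Il6. Points are libraries. The Socs3 per Stat3 ratio is at most 0.215 in FosGFP+ libraries and at least 1.03 in FosGFP- libraries, with FoscKO and Control libraries between them.

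The order of the members by level was read per kilobase of exon, as CPM per kilobase. The length joins all annotated exons of a gene, 9527 bases for Stat3 and 2891 for Socs3, and the order depends on it. In CPM not divided by length, Control libraries had 1059 to 1369 for Stat3 and 526 to 649 for Socs3. Which transcripts the cells make was not tested. In FosGFP+ libraries Stat3 came first with a mean of 246, followed by Socs3 with 142, Il6st with 103, Osmr with 48.6, Jak2 with 18.6, Lif with 10.2, Il6 with 7.01 and Lifr with 5.10. Socs3 and Il6st overlapped there, as did Lif and Il6, and Il6 and Lifr. In FosGFP- libraries Socs3 came first with 306, followed by Stat3 with 75.4, Il6st with 42.2, Osmr with 14.9, Jak2 with 9.92, Il6 with 8.26, Lif with 5.05 and Lifr with 4.48. Stat3 overlapped Il6st, and each gene from Osmr on overlapped the next. Socs3 came first in both groups of the second dataset, with 352 in FoscKO libraries, where it overlapped Stat3 (200.1), and 199.9 in Control libraries, where Stat3 had 132 and did not overlap. Lif came just above Osmr in FoscKO libraries, at 22.4 and overlapping its 18.3, and below Osmr and Jak2 in Control libraries, at 5.70 and overlapping the 4.94 of Il6.

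Between FoscKO and Control libraries no member passed the test, and no gene of the 21885 tested did: 0% were called by edgeR, with 5.52% at an unadjusted p under 0.05. Other tests called some genes, DESeq2 40 higher and 29 lower and limma-voom 4 higher and 6 lower. The member nearest to the threshold was Lif, which was at 133, 95.1 and 64.8 CPM in FoscKO libraries and at 35.4, 23.1 and 16.0 CPM in Control libraries. Every FoscKO library was above every Control library. The means were 97.6 ± 34.1 CPM in FoscKO libraries and 24.8 ± 9.83 CPM in Control libraries (SD, n = 3 each), with a log2 fold change of 1.98 ± 0.34 (edgeR adjusted p = 0.0918), which ranked 8 by p among all genes tested. DESeq2 gave 2.06 with an adjusted p of 6.01e-04, and edgeR without FoscKO replicate 1 gave 1.69 with an adjusted p of 0.0361. In all, 7 of 15 alternatives called Lif, with a log2 fold change of 1.69 to 2.33 over the 15. Lif is the 1 member that the authors' deposited table lists for this comparison, with a log2 fold change of 1.69 ± 0.33 and an adjusted p of 5.32e-04, its sign turned round. The even background would give 1.45% to 3.87% of the Lif counts of FoscKO libraries and 8.98% to 20.7% of those of Control libraries.

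The other ligand gene, Il6, was at 25.5, 18.6 and 13.2 CPM in FoscKO libraries and at 7.30, 14.3 and 14.3 CPM in Control libraries. The groups overlapped, and the log2 fold change was 0.67 ± 0.41 (SE; edgeR adjusted p = 0.914). It was 0.40 without FoscKO replicate 1 and 0.43 without Control replicate 1.

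Osmr, which was higher in FosGFP+ libraries, was at 232, 231 and 201 CPM in FoscKO libraries and at 313, 280.0 and 308 CPM in Control libraries. The groups did not overlap, yet the log2 fold change of -0.44 ± 0.24 did not pass (SE; edgeR adjusted p = 0.914). Groups did not overlap for 3 of the 8 members in the second dataset (Lif, Osmr and Stat3), against 12.2% of all genes and 18% of genes of at least 50 CPM.

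Il6st was at 793, 549 and 781 CPM in FoscKO libraries and at 688, 612 and 529 CPM in Control libraries (log2 fold change 0.22 ± 0.27, edgeR adjusted p = 0.928). Lifr was at 58.5, 51.1 and 61.6 CPM in FoscKO libraries and at 36.3, 48.6 and 61.1 CPM in Control libraries (0.23 ± 0.27, edgeR adjusted p = 0.922). Without Control replicate 1 the log2 fold change of Lifr was 0.069. Both receptor chains overlapped between the groups, and under scaling by total counts the log2 fold change was -0.0016 for Il6st and 0.010 for Lifr.

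Jak2 was at 88.7, 62.4 and 50.7 CPM in FoscKO libraries and at 46.4, 62.0 and 51.5 CPM in Control libraries (log2 fold change 0.34 ± 0.27, edgeR adjusted p = 0.915). Stat3 was at 2725, 1542 and 1451 CPM in FoscKO libraries and at 1369, 1348 and 1059 CPM in Control libraries (0.60 ± 0.32, edgeR adjusted p = 0.914). FoscKO replicate 1 had the highest level of both transducer genes. Without it the log2 fold change of Stat3 was 0.25 and that of Jak2 0.083.

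Socs3 was at 1718, 547 and 788 CPM in FoscKO libraries and at 526, 558 and 649 CPM in Control libraries. FoscKO replicate 1 was far above the others, and FoscKO replicate 2 was within the Control range. The log2 fold change was 0.82 ± 0.37 (SE; edgeR adjusted p = 0.890), and without FoscKO replicate 1 it was 0.21. The same library had the highest Fos level, and without it the log2 fold change of Fos was -0.56 (edgeR adjusted p = 0.707). The median log2 fold change of the members was 0.47 in this comparison, against -0.04 over all genes and 0.24 over genes of at least 50 CPM.

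In the second dataset leukocyte markers summed to 53.5 to 98.0 CPM in FoscKO libraries and 58.2 to 83.6 CPM in Control libraries, and fibro-adipogenic progenitor markers to 571 to 746 CPM in FoscKO libraries and 404 to 562 CPM in Control libraries, which do not overlap. Endothelial markers summed to 211 to 249 CPM in FoscKO libraries and 187 to 220 CPM in Control libraries, smooth muscle and pericyte markers to 786 to 1454 CPM in FoscKO libraries and 643 to 905 CPM in Control libraries, and mature fibre markers to 509 to 1738 CPM in FoscKO libraries and 1496 to 3250 CPM in Control libraries. Some defining markers ran the other way from their lists without overlap: Pdgfra was at 7.27 to 9.74 CPM in FoscKO libraries and 12.5 to 21.7 CPM in Control libraries, and Pecam1 of endothelium at 3.92 to 10.4 CPM in FoscKO libraries and 12.2 to 21.9 CPM in Control libraries. Ptprc was at 30.5 to 55.7 CPM in FoscKO libraries and 25.3 to 43.7 CPM in Control libraries. No marker of these lists was called, and the part of these cells in the Lif values was not tested.

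The rest of the pathway was read from a list of 59 other genes in 7 roles. Between FosGFP+ and FosGFP- libraries, 18 of the 55 tested rose, 4 fell and 33 did not pass, with a median log2 fold change of 0.38, against 10.3% of all genes tested called higher and 1.85% lower, and a median of -0.18 over them. Of genes of at least 50 CPM, 41.9% were called higher and 1.02% lower, with a median of 0.57, above that of the list. These shares are also the ones to set beside the counts of each role below. The 18 became 11 under scaling by total counts, and 10 with 11 lower under TMM factors from genes of at least 50 CPM. Between FoscKO and Control libraries none of the 57 tested was called by edgeR, with a median of 0.32, and DESeq2 called 1.

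Among the other ligand genes, 2 of 5 tested rose and none fell in FosGFP+ libraries. Clcf1, a cytokine of the family, averaged 306 ± 13.1 CPM in FosGFP+ libraries and 109 ± 31.1 CPM in FosGFP- libraries (SD, n = 4 each; log2 fold change 1.48 ± 0.21, edgeR adjusted p = 3.37e-04). The gene of oncostatin M, Osm, the ligand of Osmr, was too low to be tested there, at a mean of 0.616 CPM in FosGFP+ libraries and 0.700 CPM in FosGFP- libraries.

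Among the other receptor chains, none of 4 rose and 1 fell. Il27ra, the receptor chain of interleukin 27, averaged 5.40 ± 1.38 CPM in FosGFP+ libraries and 13.5 ± 2.49 CPM in FosGFP- libraries (log2 fold change -1.32 ± 0.35, edgeR adjusted p = 0.0225), and with the even background subtracted its log2 fold change was -2.14 (edgeR adjusted p = 0.0512). Il6ra, the IL6-binding chain, averaged 25.1 ± 8.64 CPM in FosGFP+ libraries and 18.2 ± 4.73 CPM in FosGFP- libraries and did not pass (0.45 ± 0.30, edgeR adjusted p = 0.353).

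Of the other kinases, 1 of 2 tested rose. Jak1, the kinase that gp130 relies on, averaged 825 ± 149 CPM in FosGFP+ libraries and 336 ± 66.9 CPM in FosGFP- libraries (log2 fold change 1.29 ± 0.20, edgeR adjusted p = 5.19e-04). Of 6 other STAT genes, 2 rose: Stat5a by 1.05 ± 0.23 (edgeR adjusted p = 0.00571), with the overlap with Stat3 given above, and Stat2 by 0.78 ± 0.24 (edgeR adjusted p = 0.0482). Both calls were lost under TMM factors from genes of at least 50 CPM. That of Stat2 was also lost under total counts and with the even background subtracted (0.67, edgeR adjusted p = 0.141).

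Of 15 other inhibitor genes, 6 rose and 1 fell, with a median log2 fold change of 0.26. Of genes of at least 50 CPM, 41.9% were called higher and 1.02% lower, with a median of 0.57. Socs1, the closest relative of Socs3 in its inhibition of JAK kinases, averaged 70.4 ± 18.6 CPM in FosGFP+ libraries and 26.3 ± 4.61 CPM in FosGFP- libraries (log2 fold change 1.42 ± 0.24, edgeR adjusted p = 0.00112), so that Socs1 was higher and Socs3 lower in the same libraries. Ptpn2, a phosphatase of JAK and STAT proteins, rose by 1.28 (edgeR adjusted p = 4.94e-04), Pias2, a STAT inhibitor, by 1.33 (edgeR adjusted p = 4.44e-04) and Socs6 by 1.34 (edgeR adjusted p = 9.75e-04). Ptpn6, a phosphatase mainly of blood cells, fell to 1.40 ± 1.04 CPM in FosGFP+ libraries, against 6.32 ± 1.61 CPM in FosGFP- libraries (edgeR adjusted p = 0.0436). With the even background subtracted Ptpn6 had no result, so its call could not be checked there. In the second dataset Socs1 had 26.1 ± 6.96 CPM in FoscKO libraries and 55.5 ± 5.21 CPM in Control libraries (SD, n = 3 each), with no overlap and a log2 fold change of -1.09 ± 0.28 that did not pass (edgeR adjusted p = 0.386).

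Of 16 genes known as STAT3 targets, 7 rose and 1 fell in FosGFP+ libraries, with a median log2 fold change of 0.61. The share that rose and this median were near the 41.9% and 0.57 of genes of at least 50 CPM. Myc, a transcription factor of growth, averaged 2963 ± 440 CPM in FosGFP+ libraries and 949.6 ± 175 CPM in FosGFP- libraries (SD, n = 4 each; log2 fold change 1.64 ± 0.18, edgeR adjusted p = 1.33e-04). Pim1, a survival kinase, averaged 76.7 ± 15.2 CPM in FosGFP+ libraries and 21.7 ± 3.40 CPM in FosGFP- libraries (1.82 ± 0.22, edgeR adjusted p = 1.77e-04). Hif1a, the oxygen-responsive factor, rose by 1.47 (edgeR adjusted p = 2.55e-04) and Vegfa, an endothelial growth factor, by 1.40 (edgeR adjusted p = 8.14e-04). Junb, an AP-1 partner of Fos, averaged 3098 ± 245 CPM in FosGFP+ libraries and 5000.5 ± 308 CPM in FosGFP- libraries (-0.69 ± 0.15, edgeR adjusted p = 0.00696). In the second dataset the targets with the smallest p were Ier3, with a log2 fold change of 1.47 ± 0.36 (edgeR adjusted p = 0.340; 1.29 and adjusted p = 0.0295 in the authors' deposited table), and Bcl3 with 1.39 ± 0.38 (edgeR adjusted p = 0.499), both chosen after their values were seen.

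Of 7 regulators of Il6 mRNA none rose and 1 fell. Zfp36, whose product binds the Il6 message and speeds its decay, averaged 1495 ± 256 CPM in FosGFP+ libraries and 2698 ± 269 CPM in FosGFP- libraries (log2 fold change -0.85 ± 0.17, edgeR adjusted p = 0.00381).

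**Figure D5:**
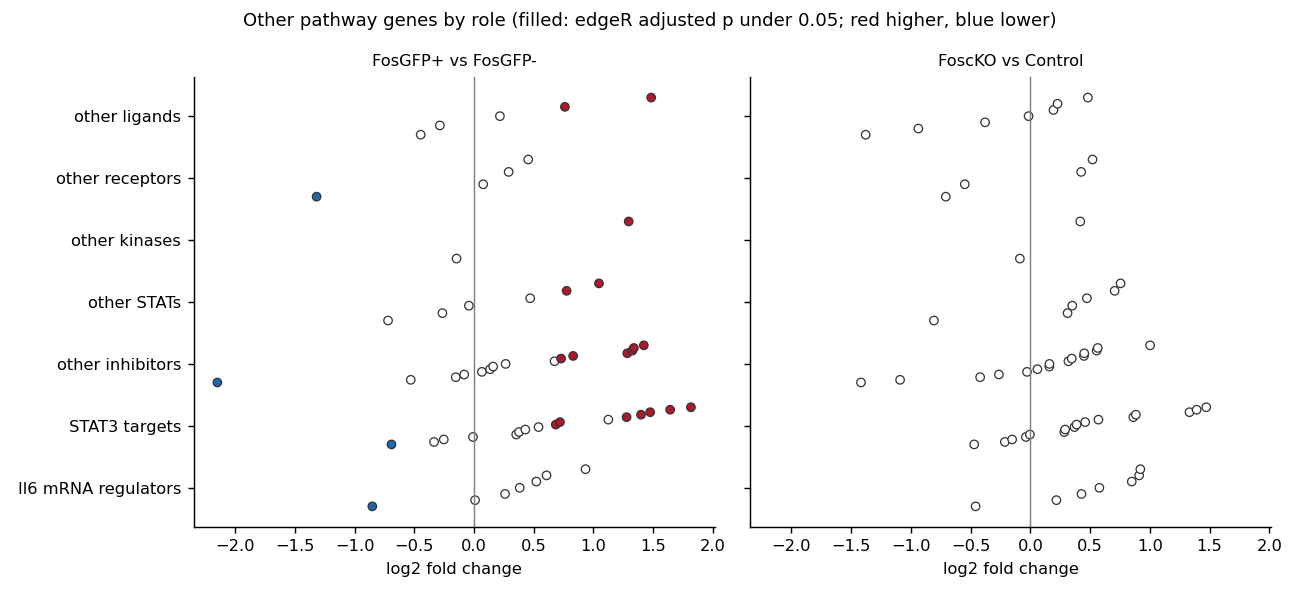
Log2 fold change of each of the other pathway genes tested, grouped by role down the page, FosGFP+ over FosGFP- on the left and FoscKO over Control on the right. Each point is a gene, filled where its edgeR adjusted p is under 0.05. Of the 55 genes on the left 18 are filled above 0 and 4 below 0, and none of the 57 on the right is filled.

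The genes whose level followed a member most closely over the 8 libraries of the first dataset were sought among 15796 genes of at least 5 CPM, by Pearson's r of log2(CPM + 1), as a description. The libraries share their 2 groups and their depth. Nearest to Stat3 were Zswim4 (r = 0.999), Creg1 (0.996) and Slc41a1 (0.995), and nearest to Osmr were Pogk (0.995), Wtap (0.994) and Samd4 (0.990). Nearest to Socs3 were Gm8251 (0.988), Tent5b (0.980) and Eml6 (0.968), and nearest to Il6, which did not separate the groups, were Cdc7 (0.965), Ino80 (0.955) and Gm44998 (0.946).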

How the data were processed

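RNA of sorted satellite cells was made into libraries with the SMART-Seq v4 and Nextera XT kits, neither of which marks the strand, and sequenced on a HiSeq instrument, per the labels' protocols. GRCm38, HTSeq 0.6.1, STAR 2.5.0c, limma and DESeq2 1.20.0 are named, with no role, per the submitters' processing notes. Both count tables that the authors deposited hold raw counts by Ensembl gene, and 69.8% to 89.7% of a library's counts stood in lines that name no gene and were left out. The authors also deposited, for each dataset, a table of log2 fold changes with p-values, raw and adjusted, and standard errors for the genes under their threshold (3422 and 69 genes). Its fold changes run opposite to those given here (Spearman rho -0.997 and -0.991 across genes, which are no independent replicates), so their signs were turned round. The turned values are therefore no second source for a direction. Fos in the first dataset is at -1.09 after the turn. Whether the deposited comparison was taken the other way round or disagrees with the labels was not tested. Another 14 columns of per-library values in those tables match no label and were not used. Gene positions and exonic lengths are from GENCODE M21 (GRCm38), in which 49326 of the identifiers were found.

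Each dataset was fitted alone with edgeR 4.0.16 (R 4.3.3): filterByExpr, TMM, and the quasi-likelihood F-test with robust dispersion, two-sided, no covariate, with Benjamini-Hochberg adjustment over all genes tested and a threshold of 0.05. CPM were computed from the counts and the TMM-adjusted library sizes, their SD was taken over libraries, and the SE of a log2 fold change is its size divided by the square root of F. The number of counts in genes per library limits the precision of low genes such as Il6 and Lif. The script was tested on simulated counts with as many genes raised as lowered, which cannot check the choice of scaling. Alternatives were DESeq2 size factors, total counts or TMM factors from genes of at least 50 CPM as scaling, no filter or a mean of at least 5 CPM, limma-voom (limma 3.58.1), DESeq2 1.42.0, a replicate block, subtraction of an even background and each library left out in turn. The 8 members, the pathway lists and the marker lists were chosen with earlier results of these data known. Named were all members and Fos, and of each role of the pathway list the called genes with up to 4 of the smallest adjusted p. The nearest 3 genes by correlation were named for Il6, Osmr, Stat3 and Socs3. Genes named beyond this rule (Osm, Il6ra, Junb, Ptpn6, Ier3, Bcl3 and, in the second dataset, Socs1) were chosen after their values were seen. A gene of the ligand list is counted but not reported here by name.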

Additional observations from a re-analysis of the deposited data

Results flagged for a closer look

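In 2 of the 16 groups of 4 libraries examined over the 8 members, 1 library stood far from the others, and chance gives about 1 in 20 such groups. Il6 was at 27.6 CPM in FosGFP- replicate 3, against 17.2 to 17.8 CPM in the other FosGFP- libraries. Lifr was at 83.5 CPM in FosGFP+ replicate 2, against 42.5 to 48.1 CPM in the other FosGFP+ libraries, and without that library its log2 fold change turned to -0.07.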

How the results depend on the processing

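Between FosGFP+ and FosGFP- libraries, Osmr, Il6st, Stat3 and Socs3 kept direction and call in 17 of 17 alternatives. Scaling by total counts, TMM factors from genes of at least 50 CPM and subtraction of an even background changed the fold change of a gene by a median of -0.40, -0.58 and -0.19 on the log2 scale. Under these 3 settings Jak2 was at 0.52, 0.33 and 0.78 and no longer passed, with edgeR adjusted p of 0.0789, 0.194 and 0.0596, and 1005, 722 and 1324 genes were higher. Under the first 2, Lifr turned to -0.23 and -0.43, 2243 and 5252 genes were lower, and 11 and 10 pathway genes were higher. Of the pathway genes 11 were lower with factors from genes of at least 50 CPM and 2 with the background subtracted, and 588 genes were lower with a minimum mean of 5 CPM. Lif passed with limma-voom (1.24, adjusted p = 0.0412) and DESeq2 (1.10, adjusted p = 0.0434). With each library left out, Jak2 was at 0.79 to 1.203, Lif at 0.73 to 1.48, Il6 at -0.52 to 0.075 and Lifr at -0.07 to 0.33, with 184 to 364 genes and 2 to 4 pathway genes lower. Leaving out FosGFP- replicate 1 ended the Jak2 call, brought the Lif call and gave the 184 genes. The cause was not tested.

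Between FoscKO and Control libraries, genes called higher and lower numbered 12 and 33 with total counts, 11 and 33 with factors from genes of at least 50 CPM, 85 and 46 with no filter, 12 and 20 with a minimum mean of 5 CPM, 4 and 6 with limma-voom, 40 and 29 with DESeq2, and 2 and 13 with the background subtracted. Lif passed with total counts (1.76, adjusted p = 0.0345), factors from genes of at least 50 CPM (1.76, 0.0380), no filter (2.00, 3.08e-06), a minimum mean of 5 CPM (1.88, 0.0309) and DESeq2 (2.06, 6.01e-04), as 1 member called each time. With each library left out it was at 1.69 to 2.33, with 0 to 1 members, 0 to 16 genes higher and 0 to 27 lower, the calls all coming without FoscKO replicate 1. Of the pathway genes 3 were higher with no filter and 1 with DESeq2. Il6st turned to -0.0016 with total counts and -0.0069 with factors from genes of at least 50 CPM. Fos turned to -0.28 in both of these, -0.091 with a minimum mean of 5 CPM, -0.13 with limma-voom, -0.15 with the background subtracted and -0.56 without FoscKO replicate 1. The cause was not tested.

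Whether replicate numbers pair the libraries was not settled, and the main fit used no pairing. In the first dataset same-numbered libraries correlated at 0.28, 0.24, 0.17 and 0.0081, and libraries of different number at -0.22 to 0.09. FosGFP+ replicates 1, 2 and 3 each correlated most with the FosGFP- library of the same number, and FosGFP+ replicate 4 did not. In the second dataset same-numbered libraries correlated at 0.17, 0.017 and -0.068, and the others at -0.13 to 0.16. With the replicate block, 23 genes rose and 20 fell in the second dataset, among them Lif (1.99, adjusted p = 0.00182) as 1 member, 1 pathway gene was higher, and Fos was at -0.13.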
